A study of Mus musculus and Homo sapiens
Mus musculus with 14 samples.

Results

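The cytosolic ribosomal protein genes encode the proteins of the ribosome that works outside mitochondria. They were chosen by symbol and by their protein coding annotation, with no measured value: RPL or RPS followed by a number, with or without a closing A, X or L form, together with RPLP0, RPLP1, RPLP2 and RPSA. The rule found 84 of 60605 human genes and 83 of 55359 mouse genes. Of the 83 mouse members, 75 were listed in the table of retinal layers, which holds 24460 genes, and 57 in the table of amacrine cells, which holds 18415 genes.

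The RNA came from Light-Seq, in which RNA is reverse transcribed with random primers inside fixed cells, and DNA barcodes carrying a unique molecular identifier (UMI) are then crosslinked by light to the cDNA of chosen cells. Human HEK293T cells and mouse 3T3 fibroblasts were barcoded side by side in 3 wells of a mixed culture. The labels name the human line HEK293T, whereas the study's methods describe a HEK293 line that expresses GFP from a CMV promoter. From wild-type (WT) mouse retina, which the methods describe as CD1 mice at postnatal day 18, 4 sections of the same animal gave 3 barcoded populations: the photoreceptors of the outer nuclear layer (ONL), the bipolar cell layer (BCL), where Muller glia also lie, and the ganglion cell layer (GCL). Another 5 sections gave tyrosine hydroxylase positive (TH+) amacrine cells, which make dopamine and were few in each section, and TH- amacrine cells. Nothing was treated, and the wells and sections are described as technical replicates, so the p-values below measure the spread between wells or sections and not between animals. The cultures, layers and amacrine cells were sequenced in separate runs and were not tested against each other.

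Each ribosome is built from a large subunit, whose proteins carry the prefix RPL, and a small subunit, whose proteins carry RPS, and it carries a single copy of nearly every protein. RPLP0, RPLP1 and RPLP2 form the stalk of the large subunit that recruits translation factors, and RPSA and RPS3 are small subunit proteins. Growing cells are known to hold much of their mRNA as ribosomal protein messages, and mammalian genomes hold many processed pseudogenes that were copied from those messages. The last point matters here because reads of up to 40 nt were kept only when they mapped to a single place, so a message whose sequence recurs elsewhere cannot be counted in full.

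How much of each mouse message could be counted was therefore read from the genome. Every window of 40 bases along the canonical GENCODE transcript of each gene was looked up on both strands of GRCm39. In the median ribosomal protein gene, 9.34% of the coding windows were found at no other place, and in 29 of the 83 genes none was. The 78 genes of the mitochondrial ribosome had a median of 98.1%, and 103 other translation genes had a median of 97.4%. Over the whole canonical transcript, untranslated parts included, the median was 52.7% in the ribosomal protein genes, 97.1% in the mitochondrial ones and 96.2% in the other translation genes. Reads were assigned to all exons of a gene in an earlier GENCODE release, so these transcripts only approximate what was counted: the canonical transcript was longer than the deposited exon length in 14 of the 83 genes, in 5 of them by more than 2 times, and the median ratio of the lengths was 0.607. At least 50% of the coding windows were unique in 13 ribosomal protein genes and in 72 mitochondrial ribosomal protein genes. Among the highest values were 98.6% for Rpl3l, 93.0% for Rpl39l, 88.8% for Rpl8 and 85.2% for Rps3, and Rpl4 had 71.8%.

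The windows at the middle of the longest coding exon illustrate this at base level, for genes chosen with their counts known. The first 3 genes were among the most counted in retina, and their windows occurred 1 time in the genome.
Rpl4, large subunit, chr9:64085594-64085633, plus strand: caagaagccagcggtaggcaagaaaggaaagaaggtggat
Rps3, small subunit, chr7:99128563-99128602, minus strand: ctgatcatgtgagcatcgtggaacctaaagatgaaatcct
Rpl8, large subunit, chr15:76789107-76789146, plus strand: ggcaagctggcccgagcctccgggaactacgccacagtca
Of the next 4, Rps26 had the most UMIs in 3T3 cells, Rps12 and Rpl23a were at or near 0 there and Rpl15 behaved apart from the rest below, and each window recurred.
Rps26, small subunit, chr10:128462001-128462040, minus strand, 3 occurrences: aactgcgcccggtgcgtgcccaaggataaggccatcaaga
Rps12, small subunit, chr10:23662701-23662740, minus strand, 10 occurrences: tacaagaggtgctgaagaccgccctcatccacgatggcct
Rpl23a, large subunit, chr11:78073701-78073740, minus strand, 7 occurrences: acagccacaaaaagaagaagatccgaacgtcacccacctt
Rpl15, large subunit, chr14:4200511-4200550, plus strand, 7 occurrences: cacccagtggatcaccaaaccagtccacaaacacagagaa
All 7 are written 5′ to 3′ in the direction of the gene, lie in coding exons and were read from GRCm39. Other genes went the other way. The middle windows of Rpl30 and Rps29, at 0 UMIs in 3T3 cells, occurred 1 time, and that of Rps9, with 93 UMIs there, recurred.

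**Figure D1:**
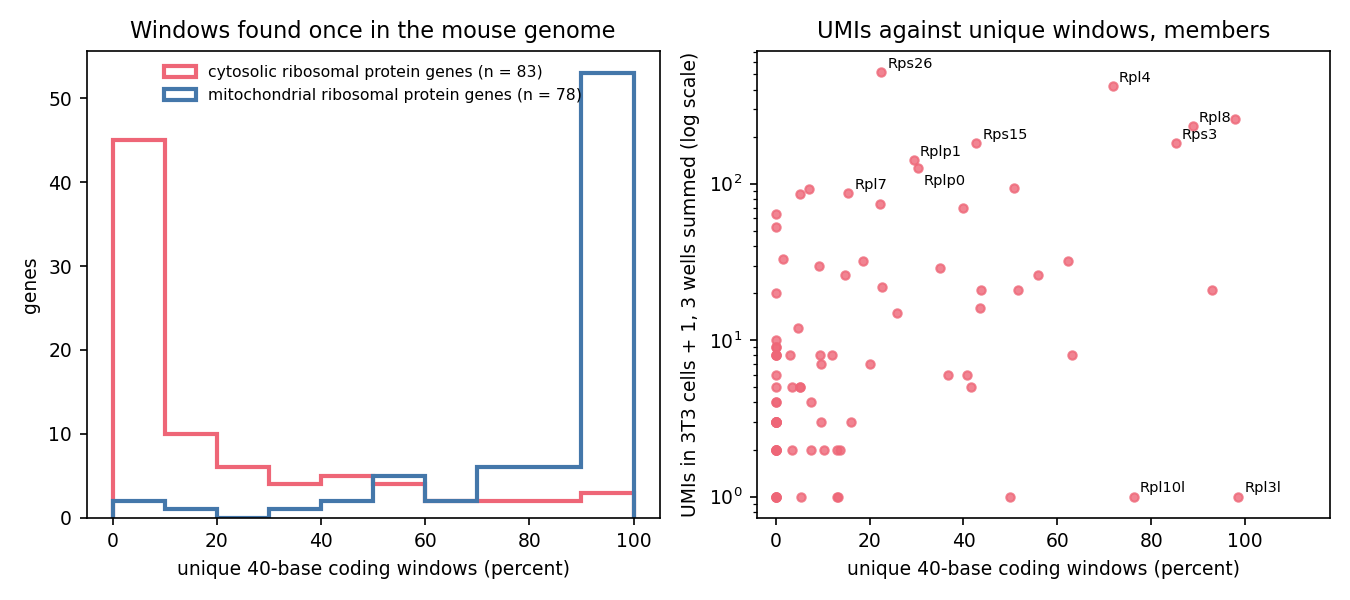
The left panel counts mouse genes by the percent of their 40-base coding windows found at no other place in GRCm39, for the 83 cytosolic and the 78 mitochondrial ribosomal protein genes. The right panel plots the UMIs of each cytosolic gene in 3T3 cells (3 wells summed, 1 added, log scale) against that percent. Rpl8, Rps3 and Rpl4 lie high on the right and many genes with few unique windows lie low on the left, but Rps26 has the most UMIs at 22.5%, and Rpl3l and Rpl10l have none at 98.6% and 76.3%.

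Counts followed this property in part. In 3T3 cells, the 13 genes with at least 50% unique coding windows held 40.7% of the family's UMIs, with a median of 25 UMIs per gene. The 29 genes with no unique coding window held 6.76%, with a median of 2. The rank correlation of the level per gene length with the unique percent was 0.39 across 83 genes in 3T3 cells, 0.47 across 75 genes in ONL and 0.41 in GCL, where genes of 1 population share libraries and are not independent replicates. With unique windows of the whole canonical transcript the coefficients were 0.18, 0.24 and 0.17. Rps26, which encodes a small subunit protein at the mRNA exit, had 517 UMIs in 3T3 cells with 22.5% of its coding windows unique. Rpl3l, a form of Rpl3 known from muscle, and Rpl10l, known from testis, had no UMI in 3T3 cells although most of their windows were unique. Named pseudogenes were counted in the deposited annotation as well. There were 1300 in the human table, covering 78 of the 84 members with up to 91 for RPL23A, and 308 in the mouse table, covering 58 of 83 members with up to 24 for Rpl31. UMIs assigned to these pseudogenes were 232 in HEK and 258 in 3T3 cells, 8.45% and 7.53% of the UMIs on members and pseudogenes together. More UMIs lay on named pseudogenes than on the gene itself for 10 human members, such as RPLP0 (14 against 7) and RPL10 (16 against 0), and for 17 mouse members, such as Rpsa (38 against 3) and Rps2 (22 against 7).

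Ribosomal protein genes took a larger share of all UMIs in the cultured cells than in retina. In HEK cells the shares were 1.01%, 1.07% and 1.05% in wells 1 to 3, a mean of 1.05% ± 0.0307 (SD, n = 3). In 3T3 cells they were 0.592%, 0.615% and 0.550%, a mean of 0.586% ± 0.0330 (SD, n = 3). HEK cells were higher in 3 of 3 wells with no overlap, by 1.78-fold, although species, genome and cell line cannot be told apart in this pair. A deeper run of well 2 gave 1.02% in HEK (exact 95% binomial interval 0.965% to 1.07%, which covers counting error alone) and 0.607% in 3T3 cells.

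The retinal shares had means from 0.0749% in TH+ cells to 0.115% in BCL. They were 0.0946% ± 0.00821 in ONL, 0.115% ± 0.00855 in BCL and 0.104% ± 0.00160 in GCL (SD, n = 4 each), and 0.0749% ± 0.0126 in TH+ and 0.0923% ± 0.0147 in TH- amacrine cells (SD, n = 5 each). The mean in 3T3 cells was 5.11-fold that of BCL, 5.66-fold that of GCL, 6.197-fold that of ONL, 6.35-fold that of TH- cells and 7.82-fold that of TH+ cells. For the mitochondrial ribosomal protein genes, whose proteins make the ribosome inside mitochondria, the same ratios were smaller, from 1.67 (BCL) to 1.98 (TH-). The share of those genes was 0.299% in HEK, 0.210% in 3T3 cells and 0.106% to 0.126% in the retinal populations. With the members limited to the 13 that had at least 50% unique coding windows, an alternative chosen after seeing the data, the ratio of 3T3 cells to retina was 4.58 (BCL) to 6.19 (TH+). Of those 13, 10 are listed in the layers table and 8 in the amacrine table, and the unlisted ones had 20 and 40 UMIs in 3T3 cells. Over the whole family, members absent from the layers table held 0.694% of the family's UMIs in 3T3 cells, and those absent from the amacrine table held 3.31%. Mitochondrially encoded genes, which are part of the denominator, took 17.2% of UMIs in HEK, 6.79% in 3T3 cells and 4.76% (ONL) to 9.04% (GCL) in retina, and their part in the ratios was not tested beyond the alternatives given at the end. Sequencing run and cell source cannot be told apart.

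**Figure D2:**
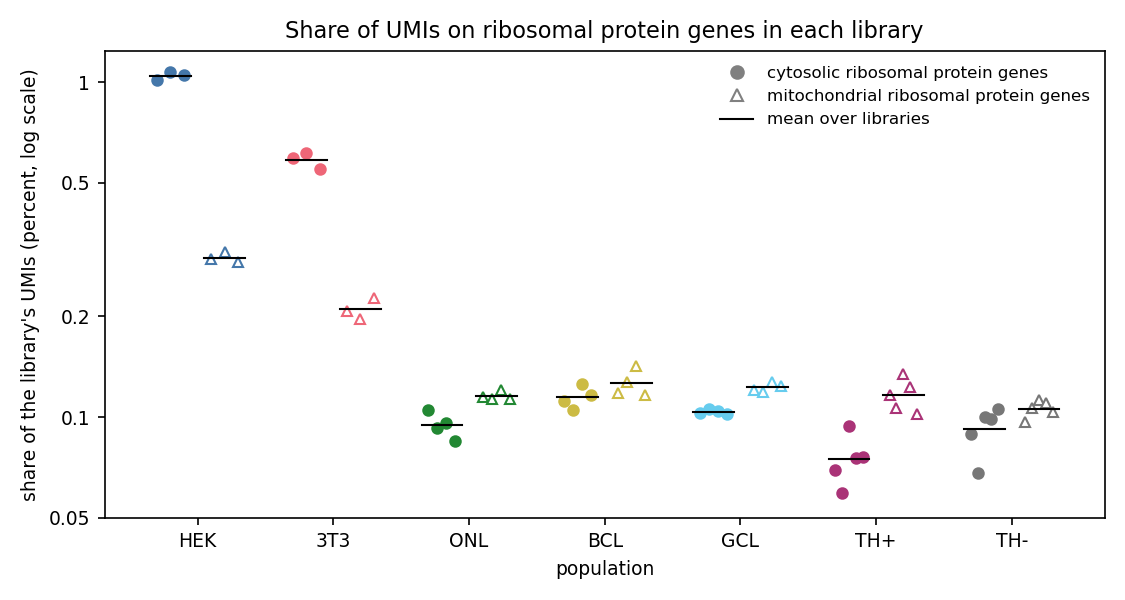
Percent of a library's UMIs on cytosolic ribosomal protein genes (filled circles) and on mitochondrial ribosomal protein genes (open triangles) on a log scale, 1 point per library, with black bars for the means. HEK (1.01% to 1.07%) and 3T3 (0.550% to 0.615%) libraries lie above all retinal ones (0.0595% to 0.126%) for the cytosolic genes, and the cytosolic genes lie below the mitochondrial ones in the mean of each retinal population.

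Among the layers, the share was lower in ONL than in BCL in 4 of 4 sections. The sections ran from 0.0848% to 0.105% in ONL and from 0.105% to 0.126% in BCL, with the highest ONL value (0.1046%) just under the lowest BCL value (0.1051%). The order held with protein coding genes alone as the denominator and with mitochondrially encoded genes left out, and again with no overlap. The mean share of the mitochondrial ribosomal protein genes was also lower in ONL than in BCL, 0.917-fold. Its sections overlapped, from 0.113% to 0.120% in ONL and from 0.117% to 0.142% in BCL. With the 10 listed members of mostly unique coding windows alone, the groups overlapped, from 0.0393% to 0.0501% in ONL and from 0.0427% to 0.0656% in BCL. ONL and GCL overlapped, as did BCL and GCL. TH+ cells were lower than TH- cells of the same section in 5 of 5 sections, 0.812-fold in the mean, but the groups overlapped, from 0.0595% to 0.0941% against 0.0683% to 0.106%, and with the 8 such members listed for amacrine cells the means were 0.0384% and 0.0401%. Counts behind these values were small in TH+ cells, with 23 to 52 UMIs on the family per section. In section 5, for example, 23 of 30317 UMIs gave an exact 95% binomial interval of 0.0481% to 0.114%.

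The most counted gene differed between HEK cells, 3T3 cells and retina. RPS4X, the X-linked small subunit protein, led in HEK cells with 10.7% ± 2.28 of the family's UMIs (SD, n = 3). Rps26 led in 3T3 cells with 16.4% ± 1.05 (SD, n = 3). Rpl4, a large subunit protein, led in all 5 retinal populations, from 16.1% in BCL to 21.4% in TH+. The 5 most counted genes of a library took 30.3% in HEK cells, 51.2% in 3T3 cells and 47.1% (GCL) to 61.9% (TH+) in retina. The large subunit held 54.3% of the family's UMIs in HEK, 49.6% in 3T3, 56.2% in ONL, 50.6% in BCL, 53.4% in GCL, 52.5% in TH+ and 59.8% in TH- cells.

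No population showed all members. In HEK cells 12 of 84 were at 0 over 238708 UMIs, which allows each up to 12.6 UMIs per library total of 1000000 UMIs (CPM), among them RPL10, RPL10L, RPL12, RPL17, RPL21, RPL3L, RPS10, RPS26, RPS27L, RPS28 and RPS3A. In 3T3 cells 10 of 83 were at 0 over 540880 UMIs, which allows up to 5.55 CPM, among them Rpl10l, Rpl17, Rpl19, Rpl24, Rpl30, Rpl3l, Rps12, Rps27 and Rps29. Of these, RPL10L, RPL17 and RPL3L were at 0 in both. The 2 limits hold for uniquely mapped UMIs alone, since reads that mapped to several places were discarded. In mouse, Rpl17, Rpl19, Rpl24 and Rps27 had no unique coding window. Named pseudogenes of Rpl17 and Rpl19 held 4 and 7 UMIs in 3T3 cells. RPL10L and RPL3L are known for tissue restricted expression, and RPS27L is a form of RPS27. In the layers, 11 of the 75 listed genes were at 0 in ONL, 16 in BCL and 9 in GCL. Rpl24, Rpl27 and Rpl35 were among those at 0 in both ONL and BCL, Rps28 and Rpl12 in both BCL and GCL, and Rps16 in all 3 layers. In the amacrine table, 27 of 57 listed genes were at 0 in TH+ cells, over 255496 UMIs, and Rpl21 and Rpl39 were at 0 in TH- cells, over 801567.

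The order of levels across the family was closer among the mouse populations than between them and HEK cells. Per gene length, across 75 genes, the rank correlation of mean levels was 0.85 to 0.90 among the layers and 0.73 to 0.81 between 3T3 cells and the layers. With the amacrine cells, across 57 genes, it was 0.68 (TH+) and 0.76 (TH-) for 3T3 cells, 0.76 to 0.87 for the layers, and 0.77 between TH+ and TH-. Between HEK and 3T3 cells it was 0.25 across 83 genes, and between HEK cells and the retinal populations it was 0.16 to 0.19. These coefficients have no test: the layers share sections, and mouse populations share gene lengths and unique windows.

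Per gene length, as CPM per kilobase of deposited gene length, RPS4X (382), RPLP2 (315), RPL8 (238) and RPS6 (185) were among the highest in HEK cells. The highest in 3T3 cells were Rps26 (622), Rps15 (538), Rplp1 (509), Rpl4 (384) and Rpl8 (322). In all 5 retinal populations the same 5 genes led, Rpl4, Rps15, Rplp1, Rpl8 and Rps26, with means between 37.5 (Rps26 in TH-) and 93.1 (Rplp1 in TH-). RPL8 was thus in the leading group of every population, and RPS26, the leader in 3T3 cells, was at 0 in HEK cells. At the lower end, leaving out genes at 0, were RPS15A (0.487) and RPL39 (1.53) in HEK cells and Rps13 (0.601) and Rpl35a (0.697) in 3T3 cells.

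The genes behind the retinal signal were seen in every layer library. Rpl4 had 211, 187, 183 and 145 CPM in ONL sections 1 to 4, 134, 182, 229 and 198 in BCL, and 190, 199, 180 and 174 in GCL. The 3 layers overlapped, and the means were 181 ± 27.2, 186 ± 39.4 and 186 ± 11.1 (SD, n = 4). In TH+ cells Rpl4 was 160 ± 47.8 and in TH- cells 158 ± 39.8 (SD, n = 5), again overlapping, while in 3T3 cells it was 771 ± 42.2 (SD, n = 3).

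Rps26 had 78.6, 77.5, 75.3 and 67.7 CPM in ONL, 103, 154, 111.8 and 119 in BCL, and 111, 112.4, 83.0 and 87.1 in GCL. Every ONL library lay below every BCL and every GCL library. With libraries scaled by TMM (trimmed mean of M values, which aligns the bulk of genes between libraries), however, the change did not pass the test, with a log2 fold change of -0.35 ± 0.19 (SE, adjusted p = 0.164) for ONL against BCL and -0.21 ± 0.16 (SE, adjusted p = 0.238) against GCL. With library sizes alone it passed in both contrasts, with -0.69 ± 0.20 against BCL (SE, adjusted p = 0.00358) and -0.39 ± 0.15 against GCL (SE, adjusted p = 0.0275). In 3T3 cells Rps26 had 1011, 1038 and 834 CPM, all above the highest layer library.

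Rplp1 of the stalk was 254 ± 36.8 CPM in 3T3 cells (SD, n = 3) and 37.1 ± 9.53, 41.1 ± 12.1 and 43.9 ± 14.4 in ONL, BCL and GCL (SD, n = 4), and the layers overlapped. Rplp0 was 230 ± 8.22 in 3T3 cells and 20.9 ± 9.48, 16.4 ± 11.5 and 25.1 ± 5.75 in the layers, and Rplp2 was 135 ± 27.6 and 13.7 ± 5.15, 14.8 ± 8.79 and 15.4 ± 6.95. Per gene length the stalk genes had 1 order in all 4 populations, with Rplp1 at 509, 74.3, 82.3 and 88.0 CPM per kilobase in 3T3, ONL, BCL and GCL, Rplp0 at 139, 12.6, 9.86 and 15.2, and Rplp2 at 65.3, 6.61, 7.16 and 7.43. Over the sections of each of the 3 layers Rplp0 and Rplp2 overlapped, whereas the 3T3 wells did not. Rpsa, whose protein also binds laminin, had 3 UMIs in all 3T3 wells together, 1 in BCL and none in ONL or GCL.

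**Figure D3:**
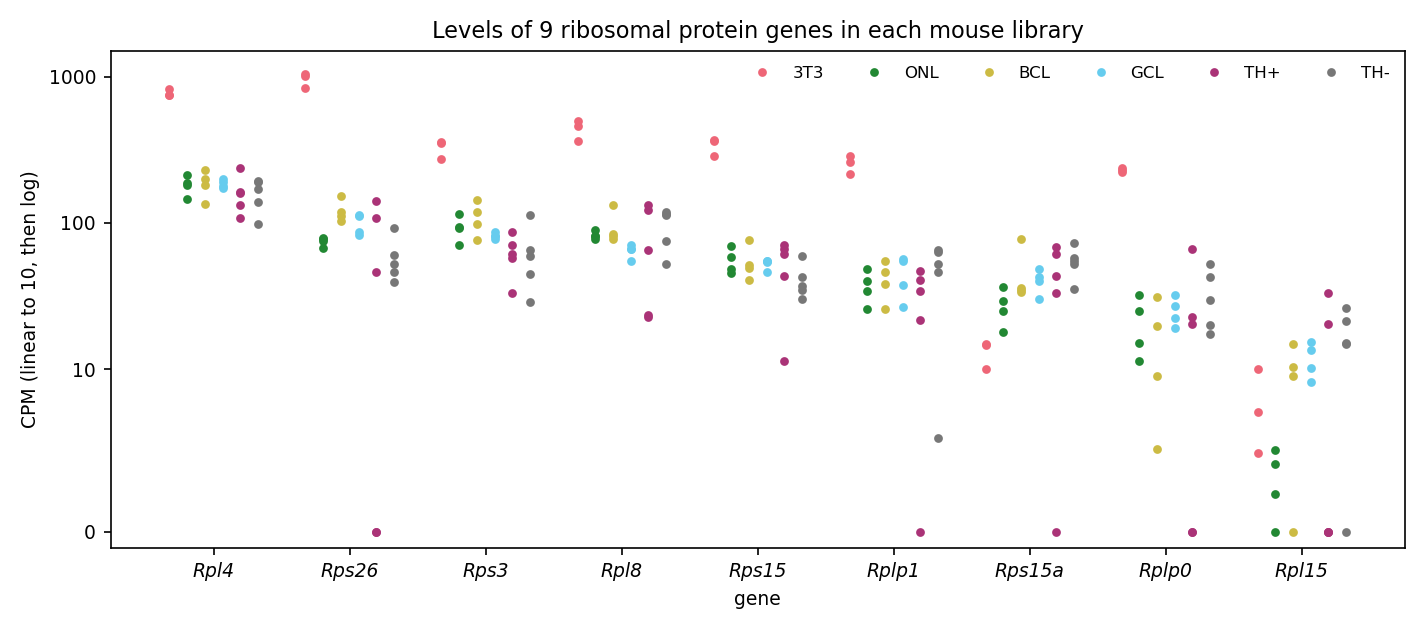
CPM of 9 ribosomal protein genes in each mouse library, 1 point per library, on an axis that is linear to 10 and logarithmic above. In 7 of the genes all 3T3 wells (red) lie above all layer libraries, whereas Rps15a lies lower in 3T3 wells (at most 14.8) than in any layer library (at least 18.0), and Rpl15 is low everywhere.

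Not every member was lower in retina. Of all 75 members listed in the layers table, with no floor on counts, 67 had a higher mean CPM in 3T3 cells than in GCL, 7 a lower one, and 1 was at 0 in both. The same counts were 69, 5 and 1 against ONL and 65, 7 and 3 against BCL, and many of these means rest on few UMIs. Rps15a, a small subunit protein with 7 UMIs in 3T3 cells, went the other way: 14.8, 14.5 and 10.04 CPM in 3T3 cells against 18.0 to 36.2 in ONL, 33.6 to 77.4 in BCL and 30.0 to 48.4 in GCL. No 3T3 well overlapped the layer libraries. Rps15a was chosen after its values were seen. Of its coding windows 9.40% were unique, but of all windows of its canonical transcript, which is 5182 bases long, 91.8% were. Rpl15, Rpl36a and Rps3a1 were the other members with UMIs in 3T3 cells and a higher mean in GCL, and the remaining 3 were at 0 in 3T3 cells. The position of UMIs along a gene was not analysed here.

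Within the layers, 29 members had enough UMIs to be tested among 11324 genes with edgeR's quasi-likelihood test and Benjamini-Hochberg adjustment. Between ONL and BCL, 0 of the 29 were called in either direction, where 18.5% of all tested genes were called higher in ONL and 18.2% higher in BCL. At an unadjusted p under 0.05 there were 2, Rpl7 (log2 fold change 0.80 ± 0.33, SE, adjusted p = 0.0560) and Rpl4 (0.34 ± 0.16, adjusted p = 0.0945), and DESeq2 called 0. The median log2 fold change of the members was 0.13, beside 0.09 over all tested genes. Its sign is opposite to that of the share, which was lower in ONL. With library sizes alone in place of TMM, the median of all genes fell by 0.34 on the log2 scale, the members' median was -0.21, and 1 member, Rps26, was called higher in BCL.

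Between ONL and GCL, 2 members were called higher in ONL and 1 in GCL, where 29.3% and 32.2% of all tested genes were. With library sizes alone, under which the median of all genes fell by 0.17, it was 0 and 4. Rpl8, a large subunit protein, had 88.6, 81.6, 77.6 and 80.6 CPM in ONL and 66.2, 65.9, 70.7 and 54.6 in GCL. The groups did not overlap, and the log2 fold change was 0.53 ± 0.16 (SE, adjusted p = 0.00477), which with library sizes alone was 0.35 and did not pass (adjusted p = 0.0568). Rps3, a small subunit protein that also takes part in DNA repair, had 93.6, 92.7, 114 and 70.9 in ONL and 81.5, 77.9, 81.5 and 87.1 in GCL, higher in ONL in 3 of 4 sections. Its groups overlapped, its log2 fold change was 0.37 ± 0.16 (SE, adjusted p = 0.0387), and the call was lost with DESeq2 (adjusted p = 0.176), with library sizes alone (adjusted p = 0.279), with RLE size factors, with no filter on low counts, with mitochondrially encoded genes left out, and without section 1, 2 or 3. Rpl15, a large subunit protein, had 4, 3, 1 and 0 UMIs in ONL and 8, 9, 6 and 9 in GCL, lower in ONL in 4 of 4 sections with a log2 fold change of -1.53 ± 0.54 (SE, adjusted p = 0.0115). It reached the filter for low counts in GCL and not in ONL, with no filter the value was -1.62 ± 0.55 (SE, adjusted p = 0.0124), and the default edgeR filter left it out. No coding window of Rpl15 was unique in the genome, whereas 62.7% of all windows of its canonical transcript were. Without section 4 it was not called (log2 fold change -1.20, adjusted p = 0.0779).

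Between BCL and GCL, 0 of 29 members were called in either direction, with 0 at an unadjusted p under 0.05 and 0 by DESeq2, where 16.1% of all tested genes were called higher in BCL and 20.4% higher in GCL. The members' median log2 fold change was -0.10, beside -0.02 over all genes, and 0.07 with library sizes alone, under which the median of all genes rose by 0.17. Over the 3 contrasts, Rpl5 and Rpl13a had wide errors, whereas Rpl4, Rpl8, Rps3 and Rps26 had standard errors of 0.13 to 0.21 on the log2 scale. The 29 passed a filter on low counts over all layers, and the other 46 listed members had too few UMIs to be tested.

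**Figure D4:**
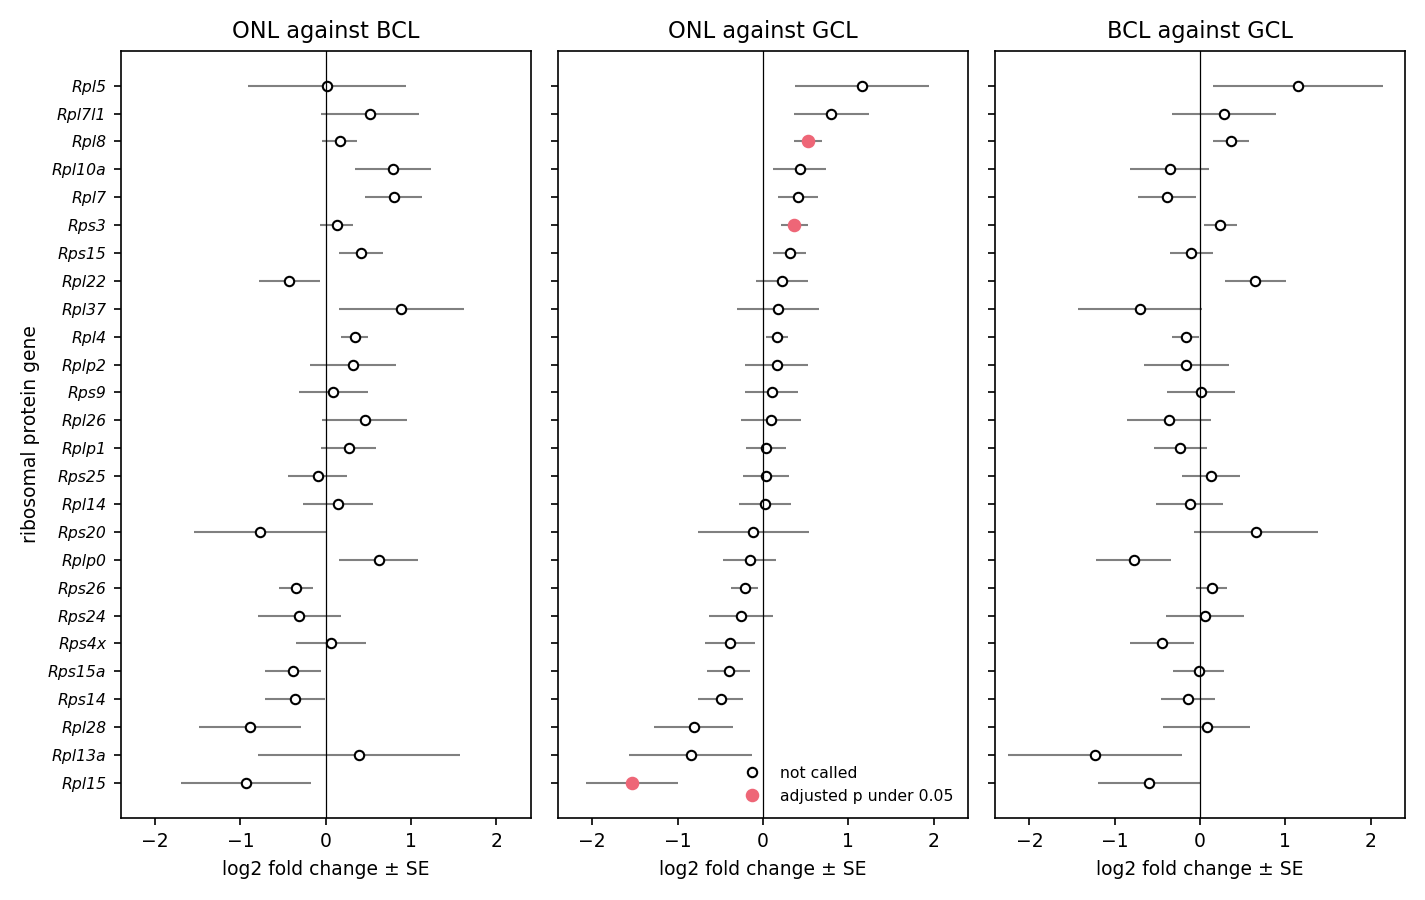
Log2 fold changes (points, with SE bars) of 26 of the 29 tested ribosomal protein genes in the 3 layer contrasts, ordered by ONL against GCL; a positive value is higher in the layer named first. Filled red points passed an adjusted p of 0.05: Rpl8 (0.53), Rps3 (0.37) and Rpl15 (-1.53) in ONL against GCL, and none in the other contrasts.

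Layer markers were highest in the layers of their label, and each layer also held UMIs of the other markers. The 7 rod genes fixed as markers took 5.58% to 6.91% of UMIs in ONL, 1.20% to 2.06% in BCL and 0.452% to 0.766% in GCL. The 6 bipolar genes took 0.558% to 0.628% in BCL and at most 0.0712% in the other layers, and the 7 ganglion cell genes 0.381% to 0.426% in GCL and at most 0.0435% in the other layers. Muller glia genes were as high in BCL, at 0.640% to 0.710% over 5 genes. The part of this mixture in the members' values was not tested. In whole layers, fewer cells of a type and less RNA per cell cannot be told apart.

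Between TH+ and TH- amacrine cells, 10 members could be tested among 6021 genes and 0 were called, with 0 at an unadjusted p under 0.05 and 0 by DESeq2. Of all tested genes, 0.747% were called higher in TH+ and 0.083% higher in TH- cells. The members' log2 fold changes ran from -0.74 (Rpl14) to 0.11 (Rps15), with a median of -0.11 beside -0.05 over all genes. Rpl8 had 122, 22.9, 23.5, 64.9 and 132 CPM in TH+ and 52.6, 75.2, 119, 115 and 113 in TH- cells. The TH+ values rested on 1 to 6 UMIs each and the groups overlapped (log2 fold change -0.57 ± 0.42, SE, adjusted p = 0.770). The 4 dopaminergic genes took 0.0605% to 0.115% of UMIs in TH+ and at most 0.00799% in TH- cells, and the 7 rod genes 1.39% to 3.62% in TH+ and 0.799% to 2.12% in TH- cells.

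HEK and 3T3 cells were compared member by member. On 6127 symbol-matched protein coding genes, with gene length and library size as offsets, 56 members were tested. Of these, 34 were called higher in HEK and 14 higher in 3T3 cells, where 22.1% and 33.6% of all tested genes were. These counts depend on the filter for low counts, which a gene can pass through 1 group alone: 28 of the 34 and 6 of the 14 did not reach it in the group where they were low and entered through the group where they were high, and 6 and 8 reached it in both. With no filter, 34 and 19 of 79 members were called, and with the default edgeR filter 20 and 10 of 33. The members' median log2 fold change was 1.97, beside -0.30 over all genes. The median of all genes rose by 0.33 with library sizes alone, under which the members' median was 2.29. Without the offset for gene length the median of all genes rose by 0.14, the members' median was 3.00, and 38 and 10 members were called.

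Higher in HEK cells were large subunit genes such as RPL18 and RPL27 and small subunit genes such as RPS12 and RPS4X. Of their mouse coding windows, 7.62%, 0%, 13.3% and 5.20% were unique, so reads from the rest could not be counted in 3T3 cells. Human windows were not computed, and the part of this in the folds was not tested. RPL18 had 123 UMIs in HEK and 3 in 3T3 cells, a log2 fold change of 6.19 ± 0.45 (SE, adjusted p = 8.86e-42). It passed the filter through the HEK wells alone, and with no filter the value was 6.16 ± 0.45 (SE, adjusted p = 2.18e-40). RPL27 had 55 and 1 UMIs and passed the filter through the HEK wells alone, as did RPS12, RPL30, RPL24 and RPL19. RPS4X was called from high counts in both, 275 and 85 UMIs, with a log2 fold change of 1.83 ± 0.21 (SE, adjusted p = 1.6e-17), and the stalk gene RPLP2 with 125 and 73 UMIs had 2.11 ± 0.24 (SE, adjusted p = 5.67e-17). RPS12, RPL30, RPL24 and RPL19 were at 0 in 3T3 cells, and at least 25.9-, 7.52-, 4.24- and 2.68-fold higher per gene length in HEK cells, against a floor of 3 UMIs over the 3T3 wells. The order of these bounds comes from the deposited lengths, since without length they were 8.17, 9.93, 10.8 and 9.43. They hold for uniquely mapped UMIs alone, with 13.3%, 13.1%, 0% and 0% of the mouse coding windows of these genes unique.

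Higher in 3T3 cells were RPS26, RPL4, RPS15 and the stalk genes RPLP0 and RPLP1, each in 3 of 3 wells. RPS26 had 0 UMIs in HEK and 517 in 3T3 cells, at least 102-fold higher per gene length in 3T3 cells, or 76.4-fold without length, against a floor of 3 UMIs over the HEK wells. It passed the filter through the 3T3 wells alone and has 35 named human pseudogenes, with 3 UMIs on them. The bounds hold for uniquely mapped UMIs alone, and how much of the human message could be counted was not computed. RPL4 had 54 and 419 UMIs, a log2 fold change of -3.43 ± 0.21 (SE, adjusted p = 1.2e-55), RPS15 had 36 and 182 (-3.09 ± 0.26, adjusted p = 5.13e-31), and RPLP0 had 7 and 125 (-4.34 ± 0.41, adjusted p = 1.07e-24), with 14 and 2 further UMIs on its named pseudogenes. RPLP0 passed the filter through the 3T3 wells alone, and with no filter its value was -4.36 ± 0.41 (SE, adjusted p = 1.33e-24). RPLP1 had 63 and 140 UMIs, with a log2 fold change of -2.83 ± 0.24 (SE, adjusted p = 2.2e-29). This call rests on the length offset, since the deposited length of RPLP1 is 3252 bases in human and 499 in mouse, and without the offset the log2 fold change was -0.14 (adjusted p = 0.668). Without it RPL4 moved to -1.95, RPS15 to -1.34 and RPLP0 to -3.11, and RPS4X to 2.68, all still called. The stalk thus held members that passed in both directions.

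The remaining called genes against the majority direction, higher in 3T3 cells, included RPL7, RPL8, RPL10A, RPL14, RPL26, RPL37 and RPS9, with log2 fold changes from -4.25 (RPL7) to -0.67 (RPL8). RPL7, RPL10A and RPL26 passed the filter for low counts through the 3T3 wells alone. Of the 14 genes called higher in 3T3 cells, 4 rested on the length offset: besides RPLP1, RPL14 turned to 0.78 without it, RPL37 to 0.34 and RPL8 to -0.0032, none of which passed (adjusted p = 0.123, 0.608 and 0.992). RPL7 had 2 UMIs in HEK and 86 in 3T3 cells, and has 61 named pseudogenes in the human annotation, whereas RPL8, with 114 and 233 UMIs, has 2 and RPS9 has 1. RPSA had 15 and 3 UMIs and was called higher in HEK cells (2.85 ± 0.74, SE, adjusted p = 0.000341). It passed the filter through the HEK wells alone. It has 75 named pseudogenes in human and 12 in mouse, with 18 and 38 UMIs on them. Of its mouse coding windows 0% were unique, and the part of this in the call was not tested.

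The tested members were also split by mouse unique windows. In the 6 with at least 50% (RPL4, RPL7L1, RPL8, RPS3 and RPS9 among them), the log2 fold changes ran from -3.43 to 0.59 with a median size of 1.16, and 0 were called higher in HEK and 4 in 3T3 cells. The other 50 had a median size of 2.87, and 34 and 10 were called. Of all tested genes, 22.1% were called higher in HEK and 33.6% in 3T3 cells. The calls among the 6 depend on the length offset. Without it RPL7L1 was called higher in HEK cells (1.74, adjusted p = 1.1e-05) and RPL8 was not called (-0.0032, adjusted p = 0.992). RPS3 had 64.7 ± 5.05 in HEK and 73.1 ± 10.6 in 3T3 cells CPM per kilobase (SD, n = 3), overlapping, with a log2 fold change of -0.36 that did not pass the test. Human windows were not computed, the same filter applies, and the split was made after the data were seen and has no test.

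**Figure D5:**
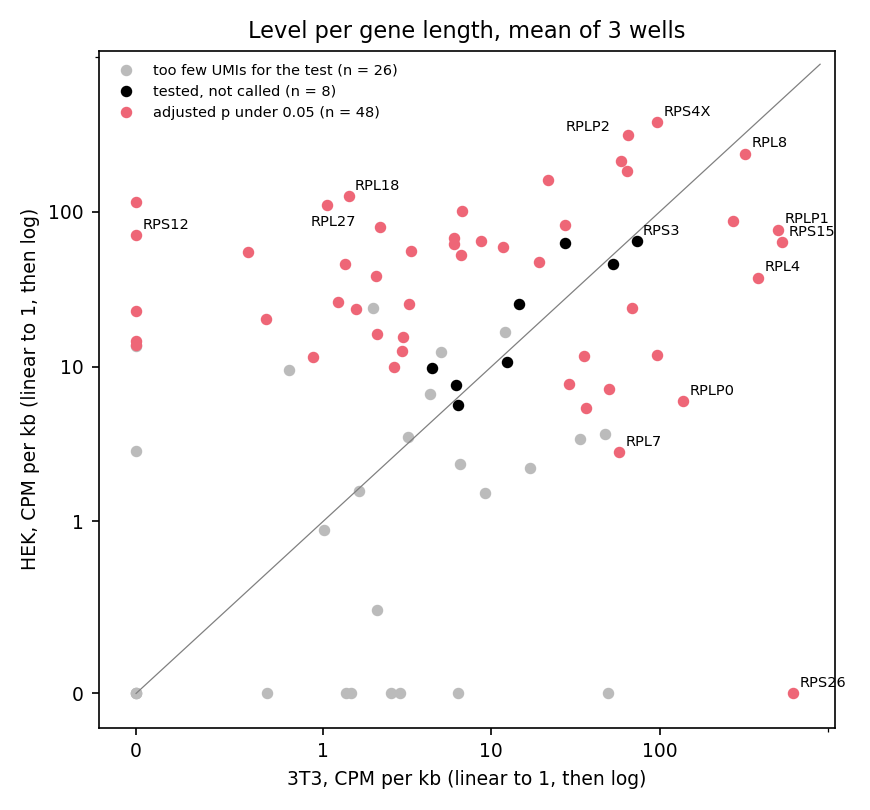
Mean level per gene length (CPM per kilobase, 3 wells) of the 82 ribosomal protein genes matched by symbol, in HEK cells (vertical) against 3T3 cells (horizontal), on axes linear to 1 and logarithmic above; the line marks equal levels. The 48 called genes (red) lie on both sides of the line, with RPS26 at 0 in HEK and RPS12 at 0 in 3T3 cells.

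The forms named as paralogs were counted beside their parents. Rpl7l1 had 0, 18 and 13 UMIs in 3T3 wells 1 to 3, with none in well 1, and a mean of 14.2 ± 8.06 CPM in ONL, 11.3 ± 10.5 in BCL and 8.1 ± 2.31 in GCL (SD, n = 4), which overlapped. In HEK cells RPL7L1 had 52 UMIs, and its log2 fold change against 3T3 cells was 0.59 ± 0.37 (SE, adjusted p = 0.166). Without the length offset it was called higher in HEK cells, at 1.74 ± 0.37 (SE, adjusted p = 1.1e-05). Its parent RPL7 had 2 UMIs in HEK and 86 in 3T3 cells. Rps27l had 20 UMIs in 3T3 and 0 in HEK cells, at least 34.6-fold higher per gene length in 3T3 cells (deposited length 816 bases in mouse and 8825 in human) and at least 3.199-fold without length, while its parent Rps27 had 0 in 3T3 and 2 in HEK cells. Rpl39l had 20 UMIs in 3T3 cells against 7 for its parent Rpl39, and 1 and 1 in HEK cells. Rpl22l1 had 2 UMIs in 3T3 and 1 in HEK cells, beside 25 and 3 for its parent Rpl22. Rpl10l and Rpl3l had none in either line, with 8 UMIs for the parent Rpl10 in 3T3 and 0 in HEK cells, and 4 and 46 for the parent Rpl3. These UMIs are not levels per length, and unique mouse coding windows differed within the pairs. They were 62.2% in Rpl7l1 and 15.4% in Rpl7, 43.7% in Rps27l and 0% in Rps27, and 93.0% in Rpl39l and 63.1% in Rpl39. They were 98.6% in Rpl3l and 3.42% in Rpl3, and 76.3% in Rpl10l and 0% in Rpl10. Rpl22l1, at 16.0%, lay below its parent Rpl22, at 55.9%.

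Other genes of translation were counted in the same fits, where 18.5% of all tested genes were called higher and 18.2% lower in ONL against BCL, and 29.3% and 32.2% in ONL against GCL. Of 32 tested ribosome biogenesis genes, 7 were called higher in ONL than BCL and 0 lower, and 10 higher and 3 lower in ONL than GCL. The latter had Rrp1, a nucleolar factor of the large subunit, at -1.06 and Wdr43, a small subunit processing factor, at 1.62 on the log2 scale (adjusted p = 8.59e-09 and 0.000126). Of 29 initiation factors, 6 were called higher in ONL than BCL and 0 lower, and 7 higher and 4 lower in ONL than GCL, with Eif4g2 at 0.94 and Eif4g1 at -0.83 (adjusted p = 1.34e-11 and 2.95e-08). Of 11 elongation factors, 1 was called higher and 1 lower in ONL than BCL, and 1 higher and 3 lower in ONL than GCL. Eef1a2, the form of the factor that brings aminoacyl-tRNA known from neurons and muscle, was lower in ONL, with log2 fold changes of -1.80 ± 0.16 against BCL and -2.78 ± 0.14 against GCL (SE, adjusted p = 2.45e-14 and 1.66e-24), and lower in BCL than GCL (-0.98 ± 0.13, adjusted p = 6.9e-09).

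Of 65 tested mitochondrial ribosomal protein genes, 1 was called higher and 0 lower in ONL than BCL, and 5 higher and 4 lower in ONL than GCL, with Mrpl49 at 1.71 and Mrpl35 at -1.75 (adjusted p = 3.2e-11 and 0.000137). Of 9 ribosome partners, 3 were called higher and 2 lower in ONL than GCL, with the RNA binding proteins Larp4 at 1.23 and Larp1 at -0.63 (adjusted p = 8.37e-08 and 1.24e-05). Of 14 genes listed for the mTOR pathway, which controls ribosomal protein translation, and for MYC, 3 were called in each direction in ONL against GCL. Among them were Max, the binding partner of MYC, at 1.70 and Rictor, a subunit of an mTOR complex, at 0.77 (adjusted p = 1.82e-17 and 1.11e-06). In ONL against BCL, 1 partner was called higher and 0 lower, and 5 mTOR pathway genes higher and 1 lower. Between BCL and GCL, where 16.1% and 20.4% of all tested genes were called, the lists had 0 to 2 genes called higher and 2 to 4 lower. Between TH+ and TH- cells, where 0.747% and 0.083% of all tested genes were called, none of the 6 lists had a called gene.

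Between HEK and 3T3 cells, genes outside the family also differed in both directions, beside 22.1% of all tested genes called higher in HEK and 33.6% in 3T3 cells. Of 34 ribosome biogenesis genes, 3 were called higher in HEK and 17 in 3T3 cells. FBL, the methyltransferase of ribosomal RNA known as fibrillarin, had 54 UMIs in HEK and 1 in 3T3 cells, where 10.7% of its coding windows were unique. NOP2 had 1 and 194, with 95.8% unique in mouse. EEF1A1, the widespread form of the elongation factor, had 4 and 541 UMIs, with 16.8% unique in mouse, and NAP1L1, a histone chaperone, had 42 and 205, with 11.6% unique. Of 29 initiation factors 6 were called higher in HEK and 16 in 3T3 cells, of 11 elongation factors 1 and 7, and of 39 mitochondrial ribosomal protein genes 14 and 8, the latter list with a median log2 fold change of 0.17. Of 10 partners 2 were called higher in HEK and 3 in 3T3 cells, and of 14 mTOR pathway genes 2 and 3.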

How the data were processed

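The deposited values were UMI counts per gene. Per the methods, the authors extracted barcode, UMI and up to 40 nt of cDNA with UMI-tools 1.1.1, mapped them with STAR 2.7.9a to hg38 or mm39, discarded multimapped reads, assigned exons with featureCounts, deduplicated per gene and split by exact barcode. HEK-barcoded reads were mapped to the human genome alone and 3T3-barcoded reads to the mouse genome alone. According to the paper, a small part of the reads of each species carried the barcode meant for the other. The effect on the HEK and 3T3 counts was not tested. Reads of 2 mouse ribosomal RNA genes were discarded. Gene length was a deposited column.

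Libraries held 47698 to 206187 UMIs (cultures), 193869 to 801105 (layers) and 30317 to 200344 (amacrine cells). Genes with at least 3 UMIs in enough libraries and 10 in total were kept by filterByExpr, scaled by TMM and tested with edgeR 4.0.16 (quasi-likelihood, R 4.3.3), calling an adjusted p under 0.05. DESeq2 1.42.0 was an alternative. Libraries of the same section or well are paired by design. Residual correlations of such pairs were 0.0116 to 0.0493 (layers), 0.0287 to 0.257 (amacrine) and -0.0102 to 0.0171 (cultures). Windows of 40 bases were matched exactly, with the GENCODE M39 annotation, and windows across exon junctions were called unique when absent from the genome.

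Named genes were the paralogs and their parents, up to 5 called members per direction, members called against the majority, the 5 highest and the lowest per gene length, the stalk genes, RPSA, members at 0, and the pair of smallest p per other list where members were called. The members and lists were chosen with earlier results of these data known. The pooled layer library was not used. Some genes that the rule names are not reported here and are left out of the figures by name, but stay in every count.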

Additional observations from a re-analysis of the deposited data

Results flagged for a closer look

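In 65 sets of 4 or 5 libraries (shares of the family, of its large subunit and of the mitochondrial ribosomal protein genes, members detected, and levels of Rpl4, Rpl7l1, Rpl8, Rpl15, Rplp1, Rps3, Rps15, Rps15a and Rps26, in each retinal population), a library far from the others of its group was found in 3, where chance alone flags about 1 in 20. Rpl8 in BCL was 132 CPM in section 3 against 77.4 to 84.0 in the others, from 26 UMIs against 15 to 17. Rps15a in BCL was 77.4 in section 1 against 33.6 to 35.6, from 15 UMIs against 7 in each of the others. Rps15 in GCL was 46.1 in section 3 against 54.0 to 54.8.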

How the results depend on the processing

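Few UMIs per gene limit these results: in retina most members had fewer than 10 UMIs per population, and a change in an untested member cannot be read. Chosen settings moved the following. Members called in ONL against GCL were 2 higher in ONL and 1 in GCL, and with library sizes without TMM 0 and 4, with the default edgeR filter 2 and 0, and with a fold of 2 required 0 higher in ONL. DESeq2, RLE size factors, no filter on low counts and leaving out mitochondrially encoded genes each gave 1 higher in ONL. With library sizes without TMM, 1 was called higher in BCL against ONL and 1 higher in BCL against GCL, and the log2 fold change of Rpl4 in ONL against GCL turned to -0.0018. Leaving out 1 section gave 0 to 2 higher in ONL against BCL (2 without section 3, 1 without section 4), 1 to 2 higher in ONL and 0 to 1 in GCL for ONL against GCL, and 0 to 1 higher in GCL against BCL (1 without section 1 and 1 without section 3). In HEK against 3T3 the default edgeR filter gave 20 and 10, and leaving out 1 well gave 25 to 32 and 15 to 16. The replicate block gave 32 and 14 in HEK against 3T3, and changed no other count of called members by over 1.5 times. The share in HEK was 1.17% of protein coding UMIs and 1.26% without mitochondrially encoded genes. That in 3T3 was 0.629% without the latter, and in GCL 0.109% and 0.114%. Leaving out the most counted gene gave 0.933% (HEK), 0.490% (3T3), 0.0764% (ONL), 0.0961% (BCL), 0.0849% (GCL), 0.0589% (TH+) and 0.0764% (TH-). The members with unique coding windows alone gave 0.237%, 0.0454%, 0.0519%, 0.0439%, 0.0384% and 0.0401% in the mouse populations in that order. Both were chosen after seeing the data. The rank correlation of HEK with 3T3 levels was 0.25 per gene length and 0.33 without length. Of 190 alternative values of counts, shares and correlations, 152 were within 1.5 times (counts) or 1 SD (shares and correlations) of the main ones. The cause was not tested.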
